A study of Homo sapiens with 12 samples.

Results

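Parental cultures, of 786-O and of A498 cells, were compared across their transcriptomes. Both are established human lines of clear cell renal cell carcinoma (ccRCC), the kidney cancer in which loss of VHL leaves the hypoxia-inducible factors (HIF) active in normal oxygen. The comparison took the 6 parental libraries out of the 12 of the series, 3 of 786-O and 3 of A498. The cells carried no transgene, had no selection for drug resistance (sunitinib at 0 µM) and were labelled as untreated, although their sample names contain "veh", and both were grown in the same high-glucose DMEM with foetal bovine serum. The other 6 libraries came from a sunitinib-resistant culture of 786-O, made by selection in 4 µM sunitinib, and from cultures labelled A498-Su, made by selection in 2 µM. The question put to these libraries was which programs of autosomal genes separated the lines, namely lineage factors, the HIF program, matrix, immune signalling and metabolism. Each line stands for a single tumour, and it is not stated whether the replicate libraries came from separate cultures. The p-values therefore measure the spread between these libraries, which may be technical.

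A proximal tubule cell of the kidney is kept by transcription factors such as PAX8, which ccRCC cells usually retain. The VHL protein marks the alpha subunits HIF1A and EPAS1 (also called HIF2A) for destruction when prolyl hydroxylases such as EGLN3 have modified them, and without VHL these factors keep genes of glycolysis, angiogenesis and lipid storage on. ccRCC is also known for lipid droplets, for a rewired amino acid metabolism and for a variable interferon and chemokine output.

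The authors deposited raw counts, and the 786-O libraries held 40845091 to 47972092 counts each and the A498 libraries 21686648 to 34951585. Levels are given as CPM, counts scaled to a common library size after edgeR's TMM method, and differences as log2 fold changes of 786-O over A498, so that a negative value means a higher level in A498. At 10 CPM or more, the median coefficient of variation of 9955 genes was 2.68% in 786-O and 3.66% in A498. Each line had a batch label of its own, so batch and cell line cannot be told apart. The depth of the A498 libraries was also lower, and counts thinned to the smallest library gave 5176 genes beyond 2-fold in place of 5892. The libraries labelled A498-Su stood against their label, since genes found in A498 alone were almost absent from them, and they entered no test except an alternative that fitted all 12 libraries in 1 model. In that fit HK2, IL6, ISG15, TGFA, TGM2, TNC and VEGFA no longer passed. In bulk RNA, fewer cells with a transcript and less of it per cell cannot be told apart. Of 649 list genes tested, 62 had at least 15% of their exon bases over a gene on the other strand, and their counts are uncertain. Those named below are PAX8, HOXA7, KRT18, VIM, CDH13, VHL, CA9, PLAU, ITGA4, CXCL5, HLA-F, ICAM1, NQO1, RASSF1, IRF1, UGT1A6 and NFE2L2. A further 11 tested list genes, among them HLA-B, EGLN1, ALDOA, LDHB, ASNS and UGT1A6, shared at least 30% of their exon bases with another gene on the same strand, where reads of both are counted for neither.

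Most genes differed between the lines. Of 18777 genes tested by edgeR's quasi-likelihood test, 15288 (81.4%) had a Benjamini-Hochberg adjusted p under 0.05, 7569 (40.3%) higher in 786-O and 7719 (41.1%) higher in A498. The libraries of the lines did not overlap at 15481 genes (82.4%). A call alone therefore says little here, and a second rule, called and beyond 2-fold, is used below to separate the lines. It took 5892 genes (31.4%), of which 2090 (11.1%) were higher in 786-O and 3802 (20.2%) higher in A498. These shares are the background for every list that follows. Raw counts with no normalization turned this split around, with 5332 genes higher in 786-O and 2033 higher in A498, because the 786-O libraries were deeper. Beyond 100-fold there were still 211 genes higher in 786-O and 452 higher in A498.

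The lists differed from each other in how many of their members lay on either side. Apart from the endothelial and blood markers, of which 3 were tested, the lists with the highest share of members higher in A498 were interferon-stimulated genes (33 of 45 beyond 2-fold), NRF2 targets and detoxification genes (27 of 39) and collagen chains (12 of 22). Matrix proteases (10 against 9 of 30) and epithelial genes (8 against 8 of 23) had many members on both sides. Glycolysis had few members on either side, 2 against 2 of 24.

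**Figure D1:**
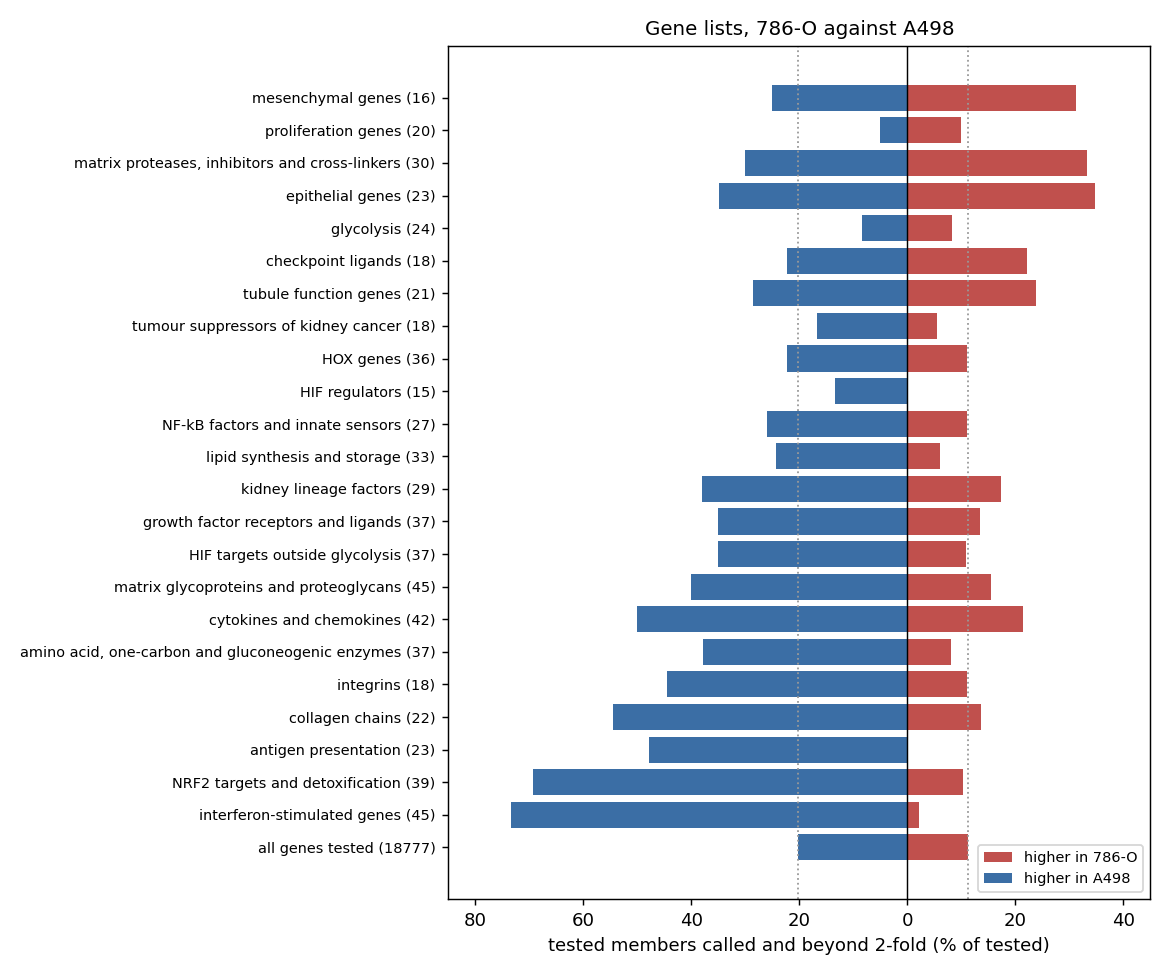
Share of the tested members of each gene list that were called and lay beyond 2-fold, in percent of tested members (number in parentheses), with bars to the right for genes higher in 786-O and to the left for genes higher in A498. Dotted lines mark the shares of all 18777 genes tested, 11.1% and 20.2%, and the bars of interferon-stimulated genes and NRF2 targets reach farthest to the left.

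Among genes at 20 CPM or more in the higher line, the largest differences were at single genes of unlike function. In 786-O the leading gene was MANEAL, which encodes a Golgi enzyme related to endomannosidase (chr1:37793847-37801137, GRCh38), at 66.3, 62.6 and 65.3 CPM. In A498 a single read fell on MANEAL, which gives a ratio of 5507 with a counting interval of 988 to 217531. The antisense RNA ENSG00000233728, which lies within the MANEAL locus, followed it with 30 and 0.0152 CPM. All of its exon bases lie over MANEAL on the other strand, so these counts are uncertain and may hold reads of MANEAL. MANEAL has 23.5% of its own exon bases over the other strand's exons, so its counts are uncertain too. NNT, the mitochondrial transhydrogenase that makes NADPH from NADH (chr5:43602692-43707405), had 110, 107 and 110 CPM in 786-O and 0.113, 0.137 and 0.109 CPM in A498, or 3 to 4 counts per library. SLC17A9, a vesicular nucleotide transporter, had 223 CPM in 786-O and 0.116 CPM in A498. NRIP3, FBXL7 and the imprinted gene NDN completed the leading genes of 786-O outside the lists, at 37.5, 23.7 and 22.8 CPM against 0.0367, 0.0215 and 0.0215 CPM.

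In A498 the leading gene at 20 CPM or more was ZFP42, a zinc finger factor known as a marker of pluripotent cells, at 31.3, 31.9 and 33.6 CPM. A single read of ZFP42 was counted in 786-O, a ratio of 4132 with a counting interval of 741 to 163257. LRP3, PPP2R2C, a regulatory subunit of protein phosphatase 2A, and the clustered protocadherin PCDHGB5 had 29.9, 68.9 and 28.7 CPM in A498 and 0.00832, 0.0224 and 0.014 CPM in 786-O. PCDHGB5 shares 44.5% of its exon bases with other genes on the same strand, so its counts are uncertain. PTPRN, GDA, which deaminates guanine, and the Hippo pathway factor TEAD2 had 88.3, 24.7 and 51 CPM in A498 against 0.0657, 0.0153 and 0.039 CPM.

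Genes that were on in 1 line and at the counting floor in the other numbered 22 for 786-O and 55 for A498. The rule asked for a mean of 10 CPM or more against at most 3 counts in each library. Protein-coding genes made up 14 of the 22 and 51 of the 55. The most abundant of 786-O were MANEAL, NRIP3, ENSG00000233728, EGFLAM and ENSG00000287037. The last overlaps CXCL5 in part, with 23.2% of its exon bases over the other strand, so its counts are uncertain. The most abundant of A498 were PPP2R2C, TEAD2, CNTNAP2, SPEG and TRIM32. TRIM32, a ubiquitin ligase, had 37.7, 38.5 and 38.6 CPM in A498 and 2 counts in each 786-O library. Among the members of the gene lists, WT1 alone belonged to the first group and CXCR4 alone to the second. The lists do not hold whole families, and relatives of their members met the rule too. Examples are MT1L in the first group and COL22A1, ADAMTS10, GSTM1 and EYA2 in the second. The sunitinib-resistant culture of 786-O carries another batch label, so batch and selection cannot be told apart there. In it the genes found in 786-O alone, picked as high in the parental culture, stood at a median of 93.9% of their parental level. Those found in A498 alone stood at a median of 0.248% of the A498 level. Single genes departed from the first median in both directions. MT1L had 0.143 to 0.985 CPM against a parental mean of 17.6 CPM, and ARPIN 19.4 to 25.2 CPM against 12.5 CPM. The cause was not tested.

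The kidney identity factors PAX8 and PAX2 were present in both lines. Of the lineage factors tested, 86.2% were called, near the 81.4% of all genes, and 55.2% lay beyond 2-fold, against 31.4%. PAX8, the factor that marks renal epithelium, had 297, 292 and 299 CPM in 786-O and 231, 247 and 258 CPM in A498, so the libraries did not overlap but the difference was only 0.27 ± 0.03 (SE) on the log2 scale. PAX2, its paralog, did not pass the test (14.3 ± 0.814 CPM against 14.7 ± 1.22, SD, n = 3 each, adjusted p = 0.732 by edgeR's quasi-likelihood test). With the trend with GC content and length removed, PAX2 passed and was higher in 786-O.

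WT1, a factor of the early nephron and of podocytes, was found in 786-O alone. Its libraries read 26.4, 26.7 and 25.6 CPM in 786-O and 0, 0.0912 and 0.0362 CPM in A498. The ratio of the summed counts was 742, with a counting interval of 254 to 3601. HNF4A, a factor of the mature proximal tubule, had the opposite pattern, with 5.81, 3.1 and 2.93 CPM in A498 and a single read in 786-O. The A498 libraries were not even for this gene, replicate 1 being the highest.

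EYA4, a transcriptional coactivator of the eyes absent family, and SIX2, a factor of nephron progenitors, were higher in A498. EYA4 had 8.83, 8.34 and 8.18 CPM there and a single read in 786-O. POU3F3, a factor of the loop of Henle and distal tubule, had 0.54 CPM in 786-O and 26.4 CPM in A498. TBX2, a T-box repressor, was higher in 786-O (5.87 against 1.09 CPM). Of 29 lineage factors tested, 10 were higher in 786-O and 15 in A498, 5 and 11 of them beyond 2-fold, with a median log2 fold change of -0.34 against -0.00 for all genes tested. EMX2, TFAP2B, FOXI1, IRX1 and IRX2 had no read in any of the 6 libraries.

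Transcripts of tubule function were low in both lines apart from a few brush border and adhesion genes. ANPEP, the aminopeptidase of the proximal tubule brush border, had 51.3, 49 and 49.5 CPM in 786-O and 903, 954 and 963 CPM in A498, which made it 18.8-fold higher in A498. PDZK1, a scaffold of brush border transporters, followed in the same direction (15.7 against 33.7 CPM). CDH6, a cadherin of the developing proximal tubule, was higher in 786-O (107 against 46.4 CPM), as were MME, the brush border endopeptidase also called CD10 (16.5 against 5.42 CPM), and SLC13A3 (5.23 against 2.5 CPM). CDH16 and AQP1, markers of differentiated tubule, were low but higher in A498 (1.88 against 6.2 CPM and 0.128 against 0.836 CPM). CUBN did not pass the test (1.13 against 0.926 CPM), and its partner LRP2 had no read in the 6 libraries. Of 38 tubule genes only 21 could be tested, 8 higher on each side, with a median of -0.03 that changed sign with the processing.

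HOX genes keep the memory of position along the body axis. Of 36 tested, 13 were higher in 786-O and 16 in A498, 4 and 8 lay beyond 2-fold, close to the shares of all genes, and the median was -0.18. HOXC13 was the clearest difference, at 6.8, 6.47 and 6.26 CPM in A498 against 0.025, 0.0736 and 0 CPM in 786-O. HOXA7 was 11.3-fold higher in A498 (2.16 against 24.5 CPM).

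Epithelial and mesenchymal genes did not place either line at 1 end. The junction gene CDH1 was at or under 0.41 CPM in each of the 6 libraries and was not tested. CDH2, the cadherin of mesenchymal cells, was abundant in both and higher in 786-O (348 against 233 CPM, 0.58 ± 0.03), as was the intermediate filament VIM (6467 against 3407 CPM, 0.92 ± 0.03). KRT18, a keratin of simple epithelia, was abundant in both and higher in A498 (392 against 630 CPM), and its partner KRT8 moved with it (1109 against 1608 CPM). Other epithelial genes went in opposite directions. KRT19, SPINT1 and EPCAM were higher in 786-O, at 175, 5.61 and 5.16 CPM against 10.9, 0.135 and 0.514 CPM. KRT7 and ELF3, an epithelial ETS factor, were higher in A498, at 9.7 and 118 CPM against 0.622 and 6.37 CPM. Among mesenchymal genes CDH13 was 142-fold higher in 786-O (35.5 against 0.268 CPM) and NT5E, the ectonucleotidase CD73, 5.38-fold higher (124 against 22.9 CPM), while CDH11 and SNAI1 were higher in A498 (0.755 against 16.1 CPM and 10.7 against 43.7 CPM). ZEB1 differed little (19.3 against 16.4 CPM). In counts, 9 of 23 epithelial genes were higher in 786-O and 12 in A498 (median -0.55), and 9 of 16 mesenchymal genes were higher in 786-O and 4 in A498 (median 0.35).

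HIF1A had the largest difference between the lines among the HIF regulators listed. It lies at chr14:61695513-61748259, and its libraries read 10.5, 10.6 and 9.52 CPM in 786-O against 303, 306 and 287 CPM in A498. HIF1A was thus 29.3-fold higher in A498 (log2 fold change -4.87 ± 0.04, adjusted p = 2.15e-27 by edgeR's quasi-likelihood test). EPAS1, which encodes the other alpha subunit, had 148, 157 and 154 CPM in 786-O and 159, 155 and 156 CPM in A498. Its difference of -0.03 ± 0.03 did not pass (adjusted p = 0.373 by edgeR's quasi-likelihood test). With the trend with GC content and length removed, EPAS1 passed and was slightly higher in 786-O. Per kilobase of transcript, EPAS1 stood at 21 RPKM in 786-O and HIF1A at 1.98 RPKM, whereas in A498 EPAS1 stood at 21.4 RPKM and HIF1A at 58 RPKM.

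The partners and regulators moved less. ARNT, the beta subunit, was higher in 786-O (32.2 against 19.5 CPM, 0.73 ± 0.05). VHL RNA was found in both lines and was higher in 786-O (23.4 against 16.6 CPM, 0.49 ± 0.06). The counts do not tell whether that RNA encodes a working protein. EGLN3, a prolyl hydroxylase that is itself induced by HIF, read 30.4, 27.4 and 28.4 CPM in 786-O and 110, 100 and 92.8 CPM in A498, 3.53-fold higher in A498. Of 15 regulators tested, 6 were higher in 786-O and 7 in A498, and HIF1A and EGLN3 were the 2 beyond 2-fold.

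HIF targets outside glycolysis fell on both sides, with more of the large differences in A498, as over all genes tested. CXCR4, the receptor of the chemokine CXCL12, had 2 counts in each 786-O library and 34.1, 33.5 and 34.1 CPM in A498, a ratio of 725 with a counting interval of 333 to 1978. CA9, the carbonic anhydrase that marks ccRCC tissue, was near the floor in 786-O with 2 counts in all and low in A498 (1.52, 1.05 and 1.23 CPM). NDUFA4L2, the other ccRCC marker among the targets, was at 0.464 CPM in both lines, so these markers of the tumour were low or nearly absent from the cultures. PLIN2, which coats lipid droplets, had 145, 137 and 145 CPM in 786-O and 492, 466 and 459 CPM in A498. HMOX1, which degrades heme and is also an NRF2 target, was 8.42-fold higher in A498 (64 against 538 CPM), and CA12 and NDRG1 were 2.85-fold and 2.81-fold higher there.

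Targets beyond 2-fold higher in 786-O were AK4, HILPDA, BHLHE41 and P4HA1. AK4, a mitochondrial adenylate kinase, had 115, 117 and 116 CPM in 786-O and 13.6, 12.9 and 11.2 CPM in A498 (3.20 ± 0.05). HILPDA, an inhibitor of lipolysis, had 17.4 against 5.05 CPM. CCND1, which drives entry into S phase and responds to EPAS1 in ccRCC, was 1.94-fold higher in 786-O (455, 447 and 447 CPM against 227, 236 and 231 CPM). The angiogenic factor VEGFA differed by only -0.09 ± 0.03 (231 against 247 CPM), and this sign turned when the trend with GC content and length was removed. TGFA and BNIP3 were also within 1.08-fold of each other (412 against 383 CPM and 77.7 against 72.2 CPM). Of 37 targets tested, 16 were higher in 786-O and 18 in A498. Beyond 2-fold there were 4 and 13, against 11.1% and 20.2% of all genes. Their median was -0.02, and its sign changed with the processing.

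Of the metabolic lists, glycolysis had the fewest members beyond 2-fold, 2 on each side. SLC2A1, the glucose transporter GLUT1, had 963 CPM in 786-O and 842 CPM in A498, and LDHA had 1620 and 1323 CPM. HK2 was slightly higher in A498 (49.5 against 56.1 CPM). Single isozymes stood apart. ENO2, the neuronal enolase, had 81.6, 83.6 and 82 CPM in 786-O and 5.89, 7.06 and 5.72 CPM in A498, while ALDOC, the brain aldolase, had 3.12, 2.75 and 2.82 CPM in 786-O and 27.9, 30.9 and 29.2 CPM in A498. PDK1, which holds pyruvate back from the mitochondrion, was 2.36-fold higher in 786-O, and PFKFB2 2.22-fold higher in A498. Of 24 genes tested, 15 were higher in 786-O and 6 in A498, with a median of 0.19.

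**Figure D2:**
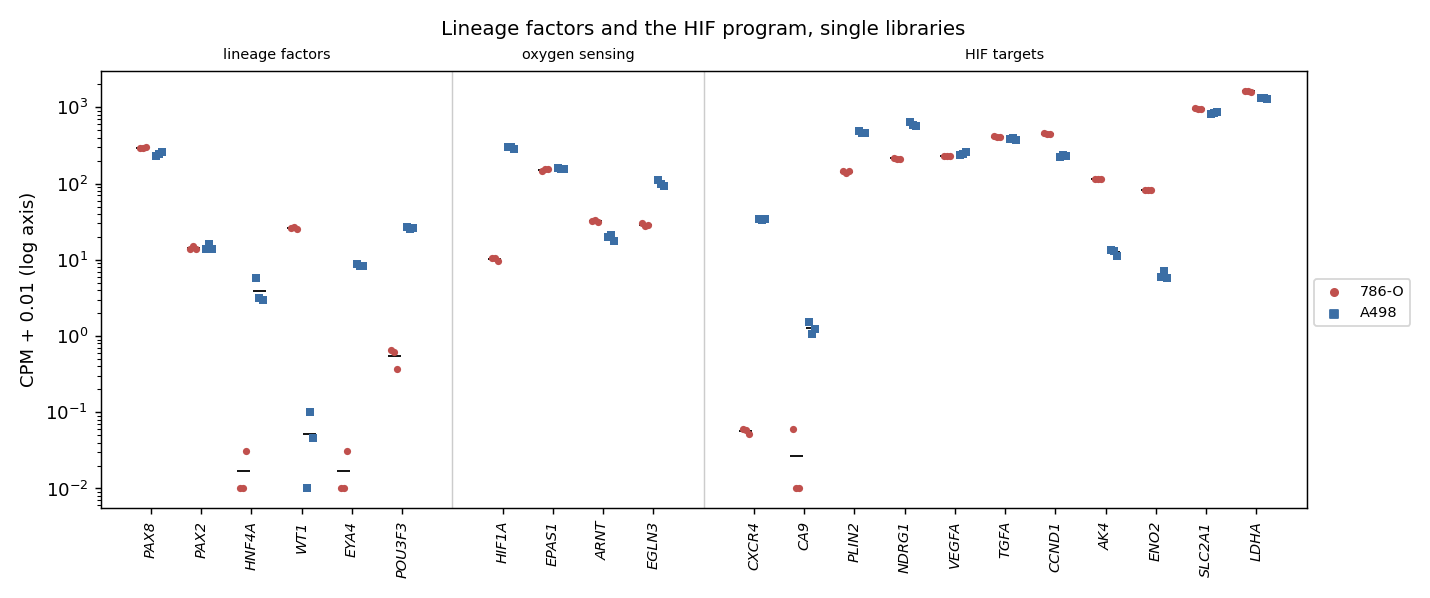
CPM plus 0.01 on a log axis for each of the 3 libraries of 786-O (circles) and A498 (squares), with a short line at the mean, for lineage factors, oxygen-sensing genes and HIF targets. EPAS1 and VEGFA sit side by side, HIF1A and CXCR4 lie higher in A498, and WT1, AK4 and ENO2 lie higher in 786-O.

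Targets on both sides carried the same letters in their promoters. Windows of 60 bases from the 250 bases before the RefSeq start (GRCh38.p14) are given for a target higher in A498 and a target higher in 786-O, 5′ to 3′ on the strand of the gene. Capitals mark the core hypoxia response letters ACGTG on either strand, which are also part of the E-box CACGTG.
PLIN2, chr9:19127529-19127588, minus strand: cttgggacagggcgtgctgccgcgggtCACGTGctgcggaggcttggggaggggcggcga
AK4, chr1:65147432-65147491, plus strand: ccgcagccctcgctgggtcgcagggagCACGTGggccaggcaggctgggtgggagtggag
The letters were found in the promoters of 13 of 26 HIF targets (50.0%) and 7 of 21 glycolysis genes (33.3%) that had an entry, and in 18.5% of 35116 promoters of the same length. A match is a description of these letters and not of binding.

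Single collagen chains differed strongly between the lines, in both directions. COL5A1, the main chain of fibril-nucleating collagen V, had 531, 530 and 545 CPM in A498 and 0.524, 0.687 and 0.421 CPM in 786-O, which made it 989-fold higher in A498. COL5A2, its usual partner, was higher in 786-O (12.4 against 2.56 CPM). COL6A3, the long chain of collagen VI, read 185, 211 and 202 CPM in 786-O and 0.902, 1.14 and 1.27 CPM in A498. The other chains of the same molecule, COL6A1 and COL6A2, were higher in A498 (78.5 against 277 CPM and 117 against 378 CPM). In A498, COL6A1 and COL6A2 thus stood at 50.1 and 70.8 RPKM and COL6A3 at 0.0513 RPKM, while in 786-O they stood at 14.2, 22 and 9.26 RPKM.

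COL1A1, COL12A1 and COL13A1 were higher in A498. COL1A1 had 2.3, 1.89 and 2.21 CPM in 786-O and 48.9, 53 and 60.8 CPM in A498, although its partner COL1A2 had 1 read in the 6 libraries. COL12A1 and COL13A1 were 20.6-fold and 28.2-fold higher in A498. COL14A1 was 47.1-fold higher in 786-O (12.9 against 0.263 CPM). COL4A1, the basement membrane collagen, was abundant in both (407 against 496 CPM, -0.29 ± 0.03). Of 22 chains tested, 6 were higher in 786-O and 15 in A498, 3 and 12 beyond 2-fold, with a median of -1.47.

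Glycoproteins of the matrix were divided as well. FBLN1, which binds fibronectin and elastic fibres, had 369, 375 and 376 CPM in A498 and 0.349, 0.27 and 0.253 CPM in 786-O (log2 fold change -10.32 ± 0.06, adjusted p = 1.15e-29 by edgeR's quasi-likelihood test). FN1, fibronectin itself, was among the most abundant genes of 786-O at 6687, 7701 and 7350 CPM and had 672, 655 and 713 CPM in A498.

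NID1, which links laminin to collagen IV, was 7.19-fold higher in A498 (27.4, 28.6 and 27.4 CPM against 201, 197 and 201 CPM). LAMA4, LAMA1 and POSTN were also higher there, at 12.8, 77.9 and 5.68 CPM against 0.0682, 2.36 and 0.00832 CPM. The YAP target CCN1, SDC2 and THBS1 were higher in 786-O, at 590, 83.7 and 719 CPM against 114, 5.8 and 148 CPM. TNC was close to even (170 against 148 CPM). Of 45 glycoproteins and proteoglycans tested, 15 were higher in 786-O and 25 in A498, 7 and 18 beyond 2-fold, with a median of -0.60. The sunitinib-resistant culture of 786-O, of which a library stood apart from its replicates, had means of 14.3 CPM of COL6A3 and 1.04 CPM of NID1. Its difference from the parental culture was not tested here.

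The secreted proteases of the lines differed in kind. PLAU, the urokinase activator of plasminogen, had 232, 225 and 226 CPM in 786-O and 3.5, 3.51 and 4.02 CPM in A498, while PLAT, the tissue-type activator, had 0.724, 1.08 and 0.885 CPM in 786-O and 37.2, 38.1 and 44.8 CPM in A498. MMP2, a gelatinase, was 49.1-fold higher in 786-O (50.4 against 1.04 CPM), and MMP7, matrilysin, was 36.7-fold higher in A498 (1.15 against 42.4 CPM). ADAMTS5 was higher in 786-O (5.95 against 0.202 CPM) and ADAMTS12 in A498 (0.744 against 67.1 CPM). MMP14, the membrane protease that activates MMP2, hardly differed (573 against 514 CPM), and TGM2, a cross-linking transglutaminase, was 1.41-fold higher in A498. Of 30 genes tested, 14 were higher in 786-O and 15 in A498, 10 and 9 beyond 2-fold, against 11.1% and 20.2% of all genes.

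Integrins, the matrix receptors, were mostly higher in A498. ITGB3, the beta chain of the vitronectin receptor, had 63.3, 65.7 and 69 CPM in 786-O and 374, 378 and 381 CPM in A498. The collagen receptor ITGA1 and the fibronectin receptor ITGA4 were 9.21-fold and 68.9-fold higher in A498. ITGB8, which activates latent TGF-beta, was 4.3-fold higher in 786-O (58.7 against 13.7 CPM), and the shared beta chain ITGB1 was within 1.09-fold (1195 against 1093 CPM). Of 18 tested, 3 were higher in 786-O and 12 in A498, 2 and 8 beyond 2-fold, with a median of -0.58.

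**Figure D3:**
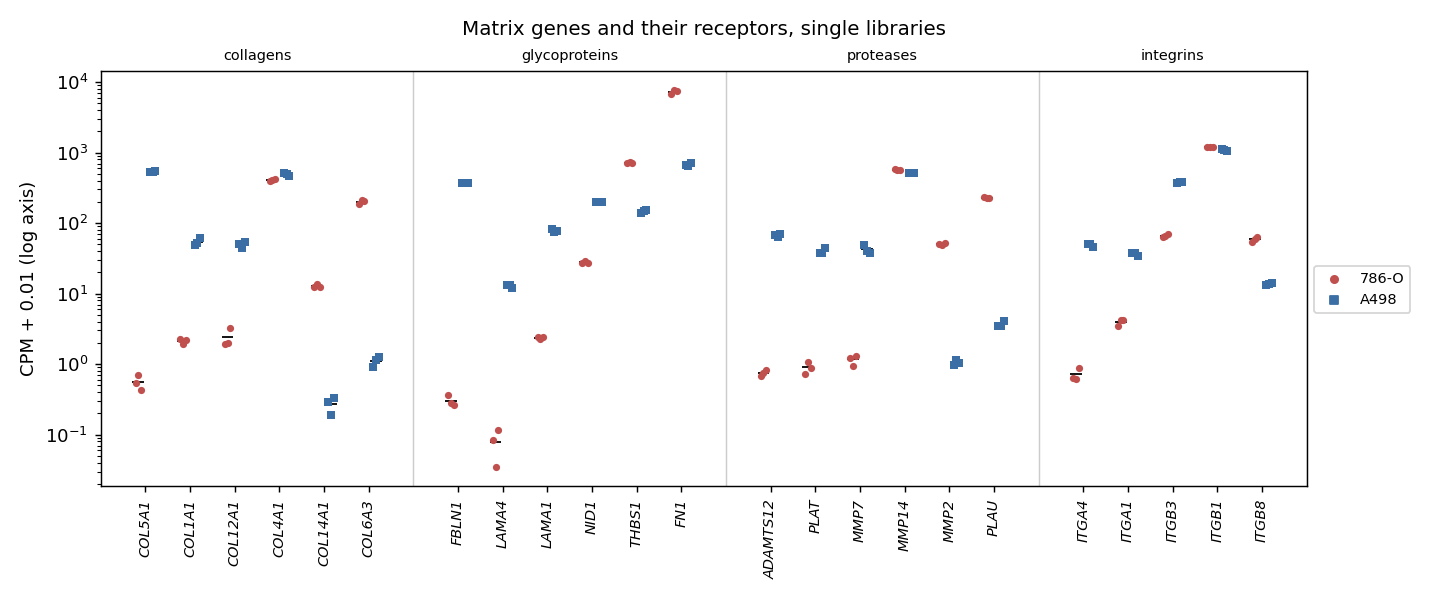
CPM plus 0.01 on a log axis for each of the 3 libraries of 786-O (circles) and A498 (squares), with a short line at the mean, for collagens, glycoproteins, proteases and integrins. COL5A1 and FBLN1 lie about 3 log units higher in A498, COL6A3 about 2 log units higher in 786-O, and COL4A1, MMP14 and ITGB1 are close.

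Interferon-stimulated genes were mostly higher in A498. All 45 were tested and called, 4 higher in 786-O and 41 in A498, and 33 of the latter lay beyond 2-fold, against a background of 20.2%. Their median was -1.61, and their summed level was 2065 to 2133 CPM in the 786-O libraries and 4738 to 5079 CPM in A498. MX1, a GTPase that traps viral particles, read 5.61, 4.98 and 5.16 CPM in 786-O and 359, 369 and 328 CPM in A498 (-6.07 ± 0.06). OAS2, an activator of RNase L, had 2.36 against 147 CPM, and IFI27 had 5.68 against 163 CPM. IFIT1, which binds viral RNA, differed less (32.1 against 84.2 CPM). The factor IRF7 was 15-fold higher in A498 (3.69 against 55.3 CPM), while STAT2 was 1.81-fold higher there and IRF1 1.17-fold.

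The genes on the other side included ISG15, BST2 and IFITM2. ISG15, a ubiquitin-like modifier, had 66.8 CPM in 786-O and 57.1 CPM in A498, and its call was lost with all 12 libraries in 1 model (adjusted p = 0.243 by edgeR's quasi-likelihood test). BST2, the tether of enveloped viruses, was 1.81-fold higher in 786-O (245 against 135 CPM), and IFITM2, which blocks viral entry, 21.4-fold higher (19.9 against 0.928 CPM). In the sunitinib-resistant culture of 786-O, normalised together with the other libraries, MX1 had a mean of 66.1 CPM, IFI27 of 137 CPM and ISG15 of 567 CPM. A library of that culture stood apart from its replicates, so these means may not hold for each library. A difference from the parental culture was not tested here.

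The letters of the interferon response element were present in promoters of genes that fell on different sides. Capitals mark GAAA repeated after a gap of 2 bases, or the reverse complement, in windows of the same kind, for IFI27 and IFI6, which were higher in A498, and for ISG15, which was not.
IFI27, chr14:94110616-94110675, plus strand: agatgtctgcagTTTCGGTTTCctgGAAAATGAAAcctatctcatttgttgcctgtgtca
IFI6, chr1:27672251-27672310, minus strand: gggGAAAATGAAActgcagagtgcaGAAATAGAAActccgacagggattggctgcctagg
ISG15, chr1:1013365-1013424, plus strand: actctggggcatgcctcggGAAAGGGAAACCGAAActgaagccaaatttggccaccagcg
In ISG15 a pair of matches overlaps and is marked as 1 run. The letters were in 19 of 35 promoters of the list with an entry (54.3%) and in 3.02% of 35116 promoters.

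Antigen presentation was higher in A498 for part of the class I route. HLA-B and HLA-C, classical class I chains, were 2.36-fold and 2.57-fold higher in A498 (400 against 942 CPM and 298 against 767 CPM), and B2M, their shared light chain, 1.63-fold higher (767 against 1249 CPM). The peptide transporter TAP1 was 1.19-fold higher in A498. Reads of HLA genes depend on the alleles of each line and on near-identical copies, so these values are uncertain. HLA-F was 3.29-fold higher in A498. The class II gene HLA-DMA, which loads peptides, had 0.528 CPM in 786-O and 7.99 CPM in A498, although CIITA, the class II activator, did not pass the test (33.5 against 33.1 CPM). Of 23 genes tested, 6 were higher in 786-O and 16 in A498, none and 11 beyond 2-fold, with a median of -0.70.

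The secreted immune factors of the lines were different sets. C1S and C1R, proteases that start the classical complement cascade, were 121-fold and 92.8-fold higher in A498. C1S read 2.4, 2.41 and 3.01 CPM in 786-O and 327, 316 and 313 CPM in A498. C3, the central complement component, was 8.16-fold higher there (23.9 against 195 CPM). The chemokines CCL2, CCL5 and CCL26, which draw monocytes, T cells and eosinophils, had 65.4, 26.3 and 12.1 CPM in A498 and 3.58, 1.55 and 0.0803 CPM in 786-O.

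In 786-O the leading secreted factor was CXCL5, a neutrophil chemokine, at 95.1, 98.2 and 98.4 CPM against 0.113, 0.0456 and 0.181 CPM in A498. TNFSF10, the death ligand TRAIL, had 225, 212 and 221 CPM in 786-O and 22.1, 23.2 and 23.2 CPM in A498. CXCL1, IL32 and CCL28 were 3.66-fold, 2.73-fold and 8.26-fold higher in 786-O. CXCL8 did not pass the test (44 ± 1.44 CPM against 42.6 ± 2.58, SD, n = 3 each). It passed, and was higher in A498, when the trend with GC content and length was removed. IL6 differed by -0.21 ± 0.06 (29.7 against 34.7 CPM). IL1B was near the floor in 786-O and low in A498 (0.0247 against 0.41 CPM, count ratio 18.1 with an interval of 5.72 to 91.9). Of 42 factors tested, 13 were higher in 786-O and 25 in A498, 9 and 21 beyond 2-fold, with a median of -0.86.

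NFKB1, a subunit of NF-kB, was 1.32-fold higher in 786-O, and the adhesion molecule ICAM1 did not pass the test (311 against 306 CPM). The RNA sensor TLR3 was 7.14-fold and TLR4 5.85-fold higher in A498, and the inflammasome sensor NLRP1 10.2-fold higher in 786-O (21.8 against 2.14 CPM). Of 27 genes of this list, 10 were higher in 786-O and 14 in A498 (median -0.19). Among checkpoint ligands, CD274, which encodes PD-L1, was 1.77-fold higher in 786-O (13.3, 14.8 and 14 CPM against 7.67, 8.11 and 8.07 CPM), PDCD1LG2, which encodes PD-L2, 10.1-fold higher (7.77 against 0.756 CPM) and TNFRSF14 23.1-fold higher (6.05 against 0.251 CPM). The stress ligand MICB was 3.38-fold higher in A498. Of 18 tested, 8 were higher in 786-O and 9 in A498, with a median of 0.01 whose sign changed with the normalization.

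Detoxification genes were the other list with a broad shift. All 39 tested genes were called, 6 higher in 786-O and 33 in A498, and 4 and 27 lay beyond 2-fold, with a median of -2.09. The list joins genes known as targets of NRF2 with other detoxification genes. NRF2, the factor encoded by NFE2L2, answers oxidative stress and is held back by KEAP1, and its activity was not measured. AKR1B10, an aldo-keto reductase, had 4.74, 5.65 and 4.61 CPM in 786-O and 1813, 1463 and 1446 CPM in A498. Its relatives AKR1C1 and AKR1C2 were 671-fold and 1176-fold higher in A498, although these genes are near-identical copies and their reads could be split between them. NQO1, the quinone reductase read as an NRF2 marker, had 240, 245 and 243 CPM in 786-O and 1217, 1081 and 1068 CPM in A498.

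GCLM, which limits glutathione synthesis, was 2.53-fold higher in A498, TXNRD1, thioredoxin reductase, 3.05-fold, GSR, glutathione reductase, 4.42-fold and ABCC2, an export pump for conjugates, 80.6-fold. ALDH1A1, which makes retinoic acid, had 83.9 against 1168 CPM. NFE2L2 and KEAP1 themselves were 116 and 103 CPM in 786-O and 197 and 143 CPM in A498.

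A small group of detoxification genes did the reverse. GSTP1, the glutathione transferase at chr11:67583742-67586656, read 357, 340 and 338 CPM in 786-O and 0.282, 0.456 and 0.181 CPM in A498 (10.18 ± 0.08), which is 5 to 10 counts per A498 library. MT1E, a metallothionein of a family of close copies, had 265 against 0.266 CPM. ALDH2, the mitochondrial acetaldehyde dehydrogenase, had 47.6, 41.7 and 45.1 CPM in 786-O and 0.649, 0.365 and 0.289 CPM in A498. UGT1A6, which shares exons with other UGT1A genes, had 53.7 against 0.458 CPM.

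The antioxidant response letters TGACNNNGC, in capitals below, were in 7 of 33 promoters of this list (21.2%) and in 10.9% of all 35116. The promoters shown are TXNRD1, higher in A498, and the metallothionein MT2A, 713 CPM in 786-O and 424 CPM in A498.
TXNRD1, chr12:104215654-104215713, plus strand: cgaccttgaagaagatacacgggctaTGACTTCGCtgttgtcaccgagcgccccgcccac
MT2A, chr16:56608454-56608513, plus strand: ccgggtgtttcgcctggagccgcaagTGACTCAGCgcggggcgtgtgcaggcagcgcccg

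Serine synthesis separated the lines at its first step. PHGDH, the dehydrogenase that opens the pathway from glycolysis to serine (chr1:119648411-119744218), had 0.175, 0.221 and 0.169 CPM in 786-O and 382, 363 and 375 CPM in A498 (-10.94 ± 0.07), and no library of 786-O had more than 9 counts. The later enzymes PSAT1 and PSPH were present in both lines and higher in A498 (217 against 442 CPM and 43.2 against 179 CPM). SLC7A11, which imports cystine for glutathione, was 5.36-fold higher in A498 (49.6 against 266 CPM).

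TDO2, KYNU and QPRT, which act in tryptophan breakdown, were higher in A498, TDO2 at 1.68 against 19.1 CPM, KYNU at 6.27 against 141 CPM and QPRT at 69.8 against 545 CPM. CKB, creatine kinase, was 99.7-fold higher there. ASS1, the urea cycle enzyme that makes argininosuccinate, was 72.6-fold higher in 786-O (10, 9.38 and 9.56 CPM against 0.141, 0.137 and 0.109 CPM), as were CPS1 (2.78-fold) and ODC1, which starts polyamine synthesis (3.5-fold). BCAT1 and NNMT were 1.81-fold and 1.49-fold higher in 786-O. FBP1, a gluconeogenic enzyme commonly lost in ccRCC, had no read in 786-O and 0.204 CPM in A498, and was not tested. Of 37 genes tested, 10 were higher in 786-O and 23 in A498, 3 and 14 beyond 2-fold, with a median of -0.47.

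Lipid genes lay beyond 2-fold about as often as all genes tested (30.3% against 31.4%), and single members stood apart. SCD, the desaturase that makes oleate, read 286, 302 and 301 CPM in 786-O and 1569, 1426 and 1323 CPM in A498. Its regulator SREBF1 was 3.65-fold and ACACB 4.05-fold higher in A498, and CPT1A, which admits fatty acids to the mitochondrion, 2.22-fold. FASN differed by only -0.33 ± 0.03 (399 against 503 CPM), a sign that turned when the trend with GC content and length was removed, and GPAM, which starts glycerolipid synthesis, was 3.55-fold higher in 786-O. Of 33 tested, 9 were higher in 786-O and 20 in A498, 2 and 8 beyond 2-fold, with a median of -0.40.

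**Figure D4:**
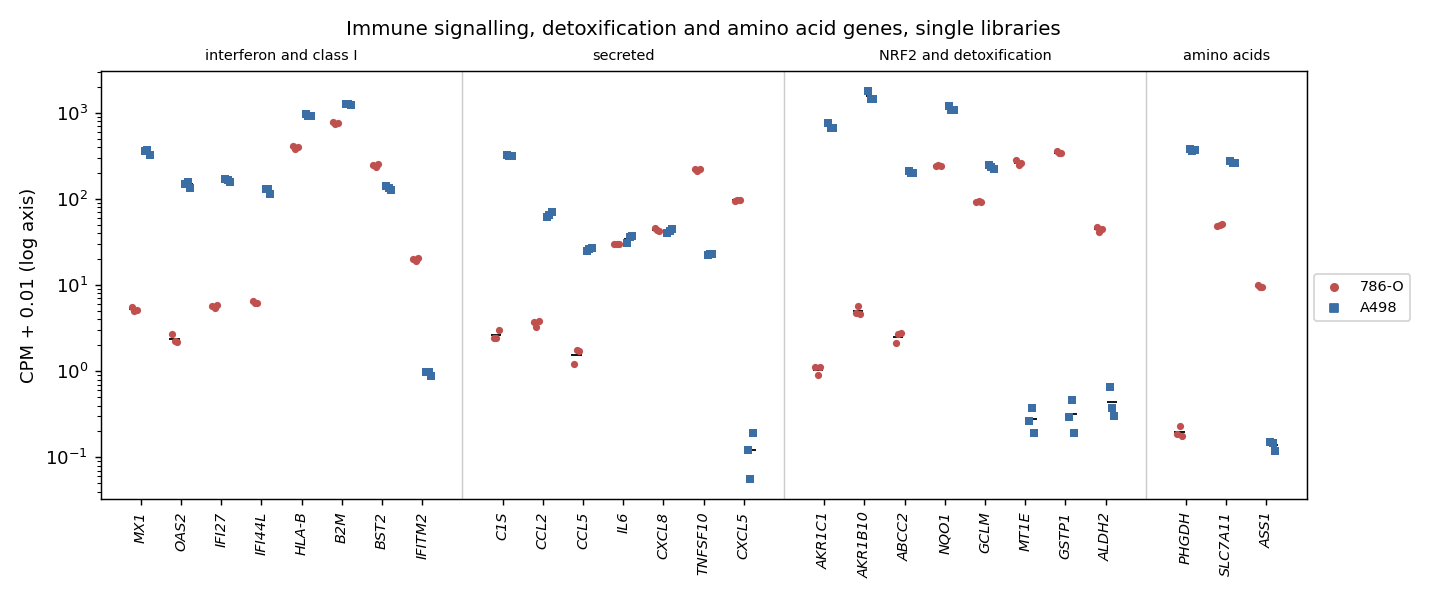
CPM plus 0.01 on a log axis for each of the 3 libraries of 786-O (circles) and A498 (squares), with a short line at the mean, for interferon and class I genes, secreted factors, detoxification genes and amino acid genes. MX1, C1S, AKR1C1 and PHGDH lie higher in A498, IFITM2, CXCL5, MT1E, GSTP1, ALDH2 and ASS1 lie higher in 786-O, and CXCL8 and IL6 are close.

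EREG, an EGFR ligand, had 242, 238 and 240 CPM in 786-O and 0.705, 0.41 and 0.253 CPM in A498, and the receptor ROR2 had 9.78 against 0.0796 CPM. GDF15, a stress-induced cytokine, was 15.1-fold and FGFR4 3.43-fold higher in A498. AXL was 2.45-fold higher in 786-O (534, 534 and 536 CPM against 213, 221 and 221 CPM), whereas EGFR and MET were within 1.3-fold (286 against 372 CPM and 757 against 659 CPM). Of 37 growth factor genes tested, 14 were higher in 786-O and 19 in A498, 5 and 13 beyond 2-fold (median -0.19).

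MTAP, which salvages adenine and methionine, was 2.16-fold higher in A498. RASSF1 was 3.37-fold higher in 786-O. CDKN2A, the cell cycle inhibitor gene, had no read in any of the 6 libraries. Of 18 tumour suppressors tested, 11 were higher in 786-O and 5 in A498, 1 and 3 beyond 2-fold, with a median of 0.13. Proliferation genes were higher in 786-O in 16 of 20 cases and in A498 in 3 (median 0.41). Only 2 and 1 of them lay beyond 2-fold, 15% against 31.4% of all genes. These were MKI67 (517 against 230 CPM) and CDC20 (430 against 200 CPM), higher in 786-O, and CCNE1, 2.01-fold higher in A498.

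Markers of other cell types were near the floor. None of 17 T cell markers could be tested, and their summed level was 0.368 to 0.474 CPM in 786-O and 0.319 to 0.76 CPM in A498. Of 12 endothelial and blood markers 3 were tested and all were higher in A498, TEK (0.102 against 2.18 CPM), CD14 (0.165 against 0.828 CPM) and CD68 (0.263 against 1.06 CPM), and the list summed to at most 4.56 CPM.

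Differences were not spread evenly over the chromosomes. Among 9640 autosomal genes at 10 CPM or more, the median log2 fold change was 0.09. Of these genes, 49.8% were called higher in 786-O and 38.5% higher in A498. On chromosome 17 it was -0.38, and 464 of 647 genes (71.7%) were higher in A498. On chromosomes 18, 6 and 3 it was 0.52, 0.43 and 0.42, with 103 of 135, 326 of 449 and 414 of 552 genes higher in 786-O. TBX2 lies on chromosome 17 and was higher in 786-O, against the direction of most genes there. On chromosome 14, which carries HIF1A and EGLN3, the median was 0.09.

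**Figure D5:**
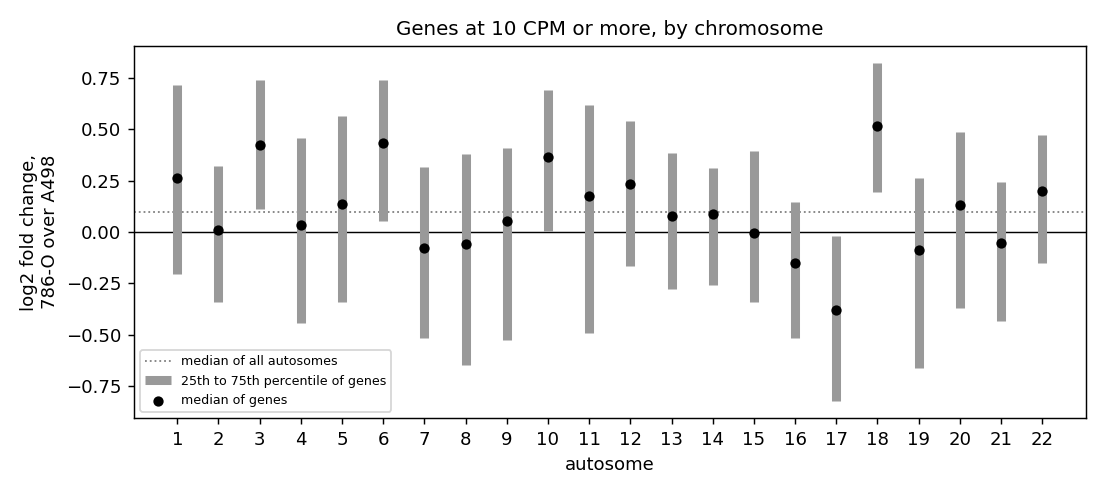
Median (point) and 25th to 75th percentile (bar) of the log2 fold change of 786-O over A498 for autosomal genes at 10 CPM or more, by chromosome, with the median of all autosomes as a dotted line. The median lies lowest on chromosome 17, at -0.38, and highest on chromosome 18, at 0.52.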

How the data were processed

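The authors deposited raw counts per gene and library, without normalization. Per their methods, stranded mRNA libraries were sequenced as paired reads on instruments of 2 kinds, not named per library, and reads were trimmed with Trimmomatic 0.36.6, aligned to GRCh38/hg38 with HISAT2 2.1.0 and counted on exons with featureCounts 1.6.3 and GENCODE version 33, with the forward strand setting. The kit gives reads of the reverse strand, and whether the setting was applied as written is not given in the sources used here, so counts of genes that overlap a gene on the other strand are uncertain (reads counted for VIM-AS1 came to 24.4% of those of VIM in 786-O and 26.3% in A498). The table held 45478 genes, 45283 of which had a symbol and a position in GENCODE version 44 of the same assembly.

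Here the 3 libraries of 786-O and the 3 of A498 were fitted in R 4.3.3 with edgeR 4.0.16 (filterByExpr, TMM, quasi-likelihood test, prior count 0.125), and p-values were adjusted by Benjamini-Hochberg over 18777 genes, with a threshold of 0.05. Values in the sunitinib-resistant culture of 786-O were normalized with all 12 libraries, which moved 786-O means by at most 5.39%. A library of that culture stood apart from its replicates. A gene with at most 3 counts in every library of a line was at the floor, and its ratio is given from summed counts with an exact 95% interval that covers counting error only. RPKM used GENCODE exon lengths. Tested on simulated data, the 786-O against A498 fit recovered 199 of 200 genes changed 2-fold among 18384, with 21 false calls. These were a larger share of all calls in the simulation than the threshold of 0.05 aims at. Far fewer genes were changed there than were called in the data, so the simulation does not test the normalization where most genes differ.

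Gene lists, key members and the comparison were chosen with earlier results of these data known. Named genes are the key members of each list, the 2 largest differences in each direction at 5 CPM or more, the 10 largest overall at 20 CPM or more, and the 5 most abundant genes found in 1 line alone. Others were named after their values were seen, mostly partners of named genes. X- and Y-linked genes were left out of the lists and names but not of the fit and the counts over all genes, and some members of the lists are counted but not reported by name here. Alternatives were all 12 libraries in 1 model, autosomal genes alone, other normalizations, filters, tests (DESeq2 1.42.0 and others), thinning, GC content and length offsets, a replicate block and each library left out. limma 3.58.1, Python 3.11.15, pandas 2.3.3 and matplotlib 3.10.9 were also used.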

Additional observations from a re-analysis of the deposited data

Results flagged for a closer look

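The libraries labelled A498-Su were outside the comparison, and a signal in them went against their label. For the 22 genes found in 786-O and at the floor in A498, the median in these libraries was 78.7% of the 786-O level. For the 55 genes found in A498 and at the floor in 786-O, it was 0.331% of the A498 level.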

How the results depend on the processing

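Under no alternative did a gene beyond 2-fold in both fits change direction. A minimum of 10 counts in every library, which removes genes silent in a line, left 3329 genes beyond 2-fold, 1155 higher in 786-O and 2174 in A498, and glmTreat, which tests against 2-fold itself, called 4791. The raw-count test of the study's methods, with neither normalization nor adjustment, gave 5332 and 2033 beyond 2-fold. Leaving out single libraries gave 15162 to 15244 calls and 6193 to 6252 genes beyond 2-fold. Fitting all 12 libraries in 1 model gave 14793 calls and 6360 genes beyond 2-fold, and ended the calls of HK2, IL6, ISG15, TGFA, TGM2, TNC and VEGFA (adjusted p = 0.0712 for IL6 to 0.574 for TNC by edgeR's quasi-likelihood test). The differences of EPAS1 and PAX2, which did not pass, changed sign there (0.015 and 0.014). Autosomal genes alone gave 14741 calls and 5625 beyond 2-fold. Nothing in the labels ties a replicate number to a shared culture or day, and same-numbered libraries did not deviate together (r of -0.098, -0.006 and -0.091), so the replicate block, with 15102 calls and 5907 beyond 2-fold, was kept as an alternative. It changed no call of the genes named here by rule. Genes near 0 changed sign. Removing the trend with GC content and length gave CXCL8 -0.25, EPAS1 0.080, FASN 0.023, PAX2 0.28 and VEGFA 0.079, and with the replicate block CXCL8 -0.25, EPAS1 0.080, FASN 0.022, PAX2 0.28 and VEGFA 0.079, of which all but FASN passed the test in both fits. Raw counts gave COL4A1 0.30, EGFR 0.21, FASN 0.26, HK2 0.42, IL6 0.39, PAX2 0.57, TAP1 0.35, TGM2 0.10 and VEGFA 0.50. The deeper libraries of 786-O make unscaled differences positive, and the cause of the other sign changes was not tested. Apart from the 6 counts given first, the 74 other counts over all genes stayed within 1.5 times. Depth limits genes at the floor, 0.0706 CPM in 786-O and 0.11 CPM in A498.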
